A study of Mus musculus with 14 samples.

Results

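The unfolded protein response and the integrated stress response were followed in liver through 10 genes, chosen by name: the transcription factors Xbp1, Atf4, Atf3 and Ddit3, the feedback gene Trib3, the amino acid gene Asns, and the endoplasmic reticulum (ER) genes Hspa5, Creld2, Dnajb9 and Herpud1. Each gene was read by the 1 probe set annotated to that symbol alone, so that 10 of the 23410 probe sets with a gene symbol were used. RNA came from livers of 14 male C57BL/6 mice aged 24 weeks, fed a high-fat diet over the last 20 weeks, with 1 Affymetrix mouse gene array per mouse. Of the mice, 7 had been injected with human mesenchymal stem cells from bone marrow (MSCs; the HFM group) and 7 with saline (the HFS group), and livers were taken 24 h later. All mice shared the strain, sex and diet, and lean mice and mice without an injection were not analysed here. The cells were human, carried GFP and went into the tail vein of mice that were not immune deficient, and no group given other cells was analysed here. The question put to these genes was whether ER stress or amino acid stress signalling in the liver of high-fat-fed mice differed 1 day after the cells were given.

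The ER folds secreted proteins, which hepatocytes make in large amounts. When unfolded proteins build up, the sensors IRE1, PERK and ATF6 in the ER membrane raise chaperones, components of ER-associated degradation and lipid synthesis genes, the first of them by splicing Xbp1 mRNA. The integrated stress response joins PERK to other kinases that sense missing amino acids, viral RNA or heme, all of which phosphorylate eIF2, slow general translation and favour translation of ATF4, and both responses have been described in steatotic liver. The array reads total mRNA, so neither the spliced share of Xbp1 nor the translation of Atf4 is part of these values.

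Promoters are shown for 5 genes because the results turn on which of them moved together. Each run holds the 250 bases before the start of the gene (RefSeq, GRCm38.p6), written 5′ to 3′ on the strand of the gene. Capitals mark exact matches on either strand to 4 motifs: the ER stress response element (ERSE; CCAAT, 9 bases of any kind, then CCACG, with both outer parts in capitals), its variant ERSE-II (ATTGG, 1 base, CCACG), the UPR element (TGACGTG) and the C/EBP-ATF composite element (TGATGNAA) that ATF4 and CHOP are known to bind.
Hspa5, chr2:34771840-34772089, plus strand: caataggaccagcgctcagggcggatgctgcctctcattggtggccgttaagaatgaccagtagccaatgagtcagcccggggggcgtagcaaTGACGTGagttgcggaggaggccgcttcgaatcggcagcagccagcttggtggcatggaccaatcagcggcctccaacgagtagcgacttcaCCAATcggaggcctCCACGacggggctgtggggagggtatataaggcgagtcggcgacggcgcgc
Creld2, chr15:88819396-88819645, plus strand: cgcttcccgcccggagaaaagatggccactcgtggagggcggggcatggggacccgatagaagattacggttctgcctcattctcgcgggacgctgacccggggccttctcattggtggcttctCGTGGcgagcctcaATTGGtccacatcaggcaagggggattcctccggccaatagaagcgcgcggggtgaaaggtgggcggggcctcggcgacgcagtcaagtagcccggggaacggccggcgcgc
Dnajb9, chr12:44210069-44210318, minus strand: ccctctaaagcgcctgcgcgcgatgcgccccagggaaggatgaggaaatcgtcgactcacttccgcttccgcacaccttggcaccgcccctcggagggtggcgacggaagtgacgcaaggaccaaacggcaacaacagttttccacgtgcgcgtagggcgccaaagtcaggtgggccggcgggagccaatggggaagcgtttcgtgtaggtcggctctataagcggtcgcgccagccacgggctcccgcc
Herpud1, chr8:94386179-94386428, plus strand: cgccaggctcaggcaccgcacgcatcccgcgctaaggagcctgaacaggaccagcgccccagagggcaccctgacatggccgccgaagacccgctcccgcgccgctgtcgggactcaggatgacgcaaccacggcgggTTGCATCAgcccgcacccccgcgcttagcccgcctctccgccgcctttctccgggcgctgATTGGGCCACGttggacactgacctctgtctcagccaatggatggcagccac
Asns, chr6:7693210-7693459, minus strand: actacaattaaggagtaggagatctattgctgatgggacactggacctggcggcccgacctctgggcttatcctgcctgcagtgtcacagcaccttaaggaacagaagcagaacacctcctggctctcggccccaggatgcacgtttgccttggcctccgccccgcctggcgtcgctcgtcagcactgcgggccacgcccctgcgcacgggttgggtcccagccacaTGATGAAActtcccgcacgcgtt
ERSE was held by 39 of 32851 promoters of 300 bases (0.119%), and 2 of the 10 genes were among them. In Hspa5 it lay 65 to 47 bases before the start, and in Creld2 126 to 108 bases before the start on the opposite strand. Alg12, a mannosyltransferase gene transcribed away from Creld2, had the same ERSE in its own window. ERSE-II was found in 12 promoters (0.0365%), including that of Herpud1, 52 to 42 bases before the start. The UPR element was in 2.01% of promoters and in Hspa5, the cAMP response element TGACGTCA in 1.79% and in none of the 10, and the C/EBP-ATF element in 3.97% and in Atf3, Trib3, Asns and Herpud1. The Dnajb9 window had no match to these 5 motifs. It did hold CCAAT and CCACG apart from each other, as 37.4% and 32.8% of all promoters hold 1 of them. A match is a description of letters, and binding was not measured.

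None of the 10 genes differed between HFM and HFS livers past the spread between mice, with 0 at an adjusted p of 0.05 (limma), 0 at an unadjusted p of 0.05 and 0 by the exact permutation test. In the background of all 23410 probe sets, 3.57% were higher and 2.90% lower at an unadjusted limma p of 0.05, and 6.36% passed the exact permutation test at 0.05. With the p under 0.01 and the 1.2-fold filter of the study's methods, whose Bonferroni step was not applied here, 0.453% were higher and 0.243% lower and none of the 10 genes was among them. At an adjusted p of 0.05 the background was 0%. Groups of 7 and 7 that did not overlap were found for 0.0555% of probe sets and for none of the 10 genes. The log2 differences, HFM minus HFS, were above 0 for 5 genes and below 0 for 5, with a median of -0.03 against 0.00 over all probe sets, of which 12031 were above 0. Fewer cells of a type and less RNA per cell cannot be told apart in whole liver.

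**Figure D1:**
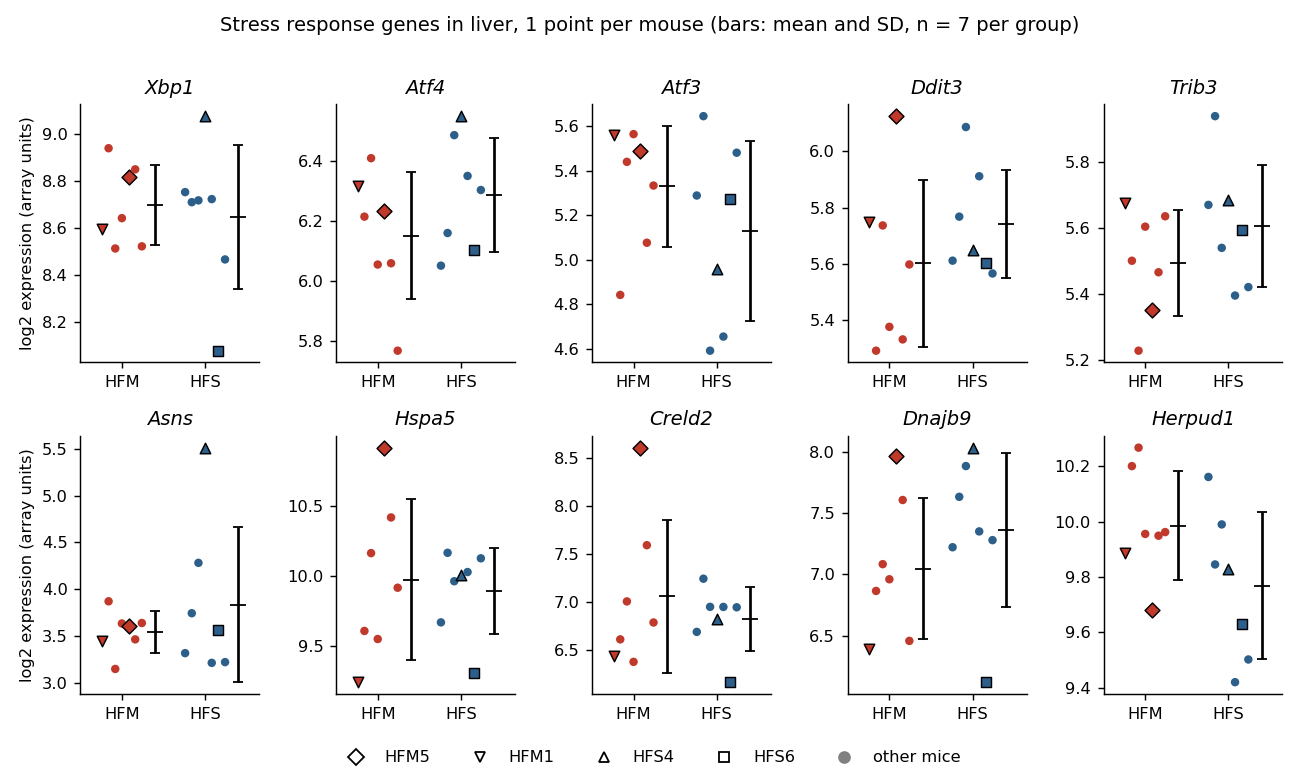
Log2 expression of the 10 genes in each mouse, with HFM mice in red and HFS mice in blue (1 point per mouse) and the mean and SD of 7 mice as bars; each panel has its own vertical axis. The groups overlap in every panel, HFM5 has the highest Hspa5 and Creld2, HFS6 the lowest Xbp1, Dnajb9 and Creld2, and HFS4 the highest Asns.

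Among the transcription factors, Xbp1, the effector spliced by IRE1, ran from 8.51 to 8.94 in HFM livers (median 8.64) and 8.08 to 9.08 in HFS livers (median 8.72). The groups overlapped, and the highest and the lowest mouse, HFS4 and HFS6, were both given saline. Its log2 difference was 0.05 (standard error 0.117, 95% interval -0.19 to 0.30; limma, adjusted p = 0.955). Without HFS6 it was -0.044. Atf4, the effector of eIF2 phosphorylation, lay at 5.77 to 6.41 in HFM livers (median 6.21) and 6.05 to 6.55 in HFS livers (median 6.30). The lowest value was that of HFM7 and the 2 highest those of HFS4 and HFS3. The difference of Atf4 was -0.14 (standard error 0.0987, 95% interval -0.34 to 0.07; limma, adjusted p = 0.833), with 2 of 7 HFM mice above the HFS mean.

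Atf3, an early stress-induced repressor and activator, ranged from 4.84 to 5.56 in HFM livers (median 5.44) and 4.59 to 5.65 in HFS livers (median 5.27). HFM2 was the only HFM mouse below 5, against 3 HFS mice. Its difference was 0.20 (standard error 0.156, 95% interval -0.13 to 0.53; limma, adjusted p = 0.837). Ddit3 encodes CHOP, which ties prolonged stress to cell death, and was at 5.29 to 6.13 in HFM livers (median 5.60) and 5.57 to 6.09 in HFS livers (median 5.65). The highest mouse was HFM5 and the lowest were other HFM mice, so the HFM values surrounded the HFS values. Ddit3 differed by -0.14 (standard error 0.118, 95% interval -0.39 to 0.11; limma, adjusted p = 0.851). Without HFM5 the difference was -0.23, at an unadjusted limma p of 0.0374.

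Trib3, a pseudokinase induced by ATF4 and CHOP that dampens both, was found at 5.23 to 5.68 in HFM livers (median 5.50) and 5.40 to 5.94 in HFS livers (median 5.59). HFS2 was highest and HFM3 lowest, with the other mice of both groups between them. The difference was -0.11 (standard error 0.0883, 95% interval -0.30 to 0.07; limma, adjusted p = 0.837), and its standard error was the smallest of the 10 genes. Asns, asparagine synthetase, a target of ATF4 when amino acids are short, was at 3.15 to 3.87 in HFM livers (median 3.61) and 3.21 to 5.51 in HFS livers (median 3.56). All mice but HFS4 lay below the median of their own array (4.24 to 4.35 over the arrays). HFS4 was at 5.51, followed by HFS3 at 4.28. Its difference was -0.29 (standard error 0.267, 95% interval -0.85 to 0.27; limma, adjusted p = 0.867), and it was -0.013 without HFS4.

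Hspa5 encodes BiP, the main chaperone of the ER, and had values of 9.25 to 10.91 in HFM livers (median 9.92) and 9.31 to 10.17 in HFS livers (median 10.01). Both the lowest and the 2 highest livers, HFM1, HFM5 and HFM6, were from HFM mice. The difference was 0.08 (standard error 0.203, 95% interval -0.35 to 0.50; limma, adjusted p = 0.960), and it turned to -0.078 without HFM5 and to -0.020 without HFS6. Creld2, an ER protein with a disulfide isomerase activity, was at 6.38 to 8.61 in HFM livers (median 6.79) and 6.16 to 7.24 in HFS livers (median 6.94). HFM5 stood highest at 8.61, followed by HFM6 at 7.59, and both were above every HFS mouse. The Creld2 difference was 0.24 (standard error 0.268, 95% interval -0.33 to 0.80; limma, adjusted p = 0.896), and -0.021 without HFM5. Dnajb9 encodes ERdj4, a cochaperone that holds IRE1 in check, and ran from 6.39 to 7.96 in HFM livers (median 6.96) and 6.12 to 8.03 in HFS livers (median 7.35). The lowest livers, HFS6, HFM1 and HFM7, came from both groups. Dnajb9 differed by -0.31 (standard error 0.264, 95% interval -0.87 to 0.24; limma, adjusted p = 0.851), and by -0.52 without HFS6, at an unadjusted limma p of 0.030.

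Herpud1 encodes a membrane protein that organises ER-associated degradation. It had values of 9.68 to 10.27 in HFM livers (median 9.96) and 9.42 to 10.16 in HFS livers (median 9.83). The 2 highest mice were HFM3 and HFM2 and the 3 lowest were HFS5, HFS7 and HFS6, while the other 4 HFS mice lay within the HFM range. Herpud1 had the smallest p of the 10 genes, with a difference of 0.22 (standard error 0.111, 95% interval -0.02 to 0.45; limma, adjusted p = 0.786) and an exact permutation p of 0.107. It passed an unadjusted p of 0.05 when 1 of 3 mice was left out, with differences of 0.28 without HFS1, 0.27 without HFM5 and 0.25 without HFS3. Its adjusted p did not reach the threshold in any of these.

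**Figure D2:**
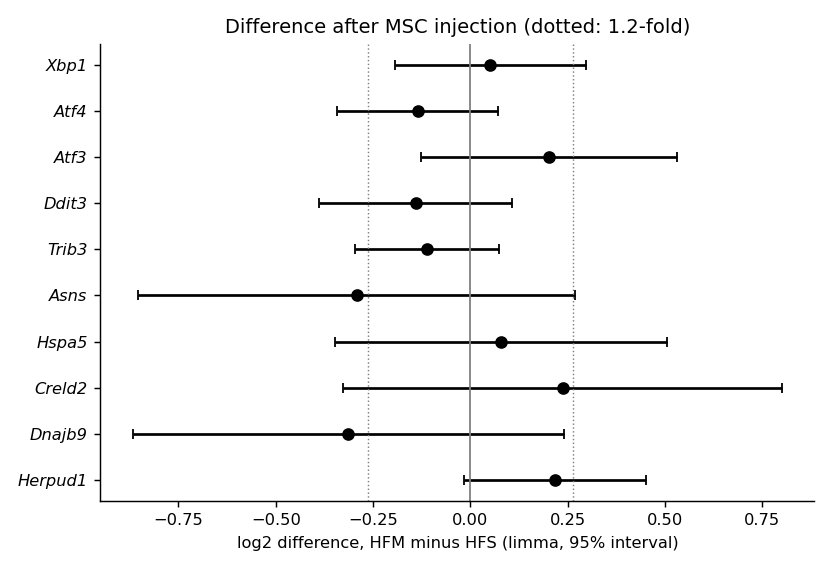
Log2 difference, HFM minus HFS, of each gene from limma (points) with its 95% interval (bars, 7 against 7 mice); dotted lines mark 1.2-fold in either direction. Every interval crosses 0, and those of Asns, Dnajb9, Creld2 and Hspa5 are the widest.

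The intervals set what these livers could show. Each of the 10 intervals reached past 1.2-fold in at least 1 direction, from that of Trib3 (-0.30 to 0.07) to that of Creld2 (-0.33 to 0.80), so that changes of this size remained within all of them. The genes varied widely between mice of 1 group. The SD within groups had a median of 0.298 over the 10 genes against 0.153 over all probe sets. For Creld2 (0.611), Asns (0.608) and Dnajb9 (0.601) it was larger than for 99.6% of probe sets, for Hspa5 (0.458) than for 99.1% and for Atf3 (0.345) than for 97.7%. Ddit3 (91.5%), Xbp1 (91.1%), Herpud1 (88.3%), Atf4 (78.7%) and Trib3 (64.7%) were also above most. The spread of some genes came largely from 1 group. Asns had an SD of 0.224 in HFM and 0.830 in HFS mice, where HFS4 was at 5.51. In the same order Creld2 had 0.797 and 0.335, with HFM5 at 8.61, Hspa5 0.571 and 0.305, and Dnajb9 0.574 and 0.627. What the mice differed in cannot be read from the labels, which give no litter, cage, hour of killing or array batch.

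Because mice of 1 group differed widely, each mouse was set against its own group mean and the genes were compared over the 14 deviations. Hspa5, Creld2 and Dnajb9 rose and fell together from mouse to mouse in both groups. Against the mean of all 14 mice, HFM5 was higher by 0.98 in Hspa5, 1.67 in Creld2 and 0.76 in Dnajb9. HFS6 had deviations from that same mean of -0.63, -0.78 and -1.08 in the same order, and HFM1 of -0.69, -0.50 and -0.81.

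**Figure D3:**
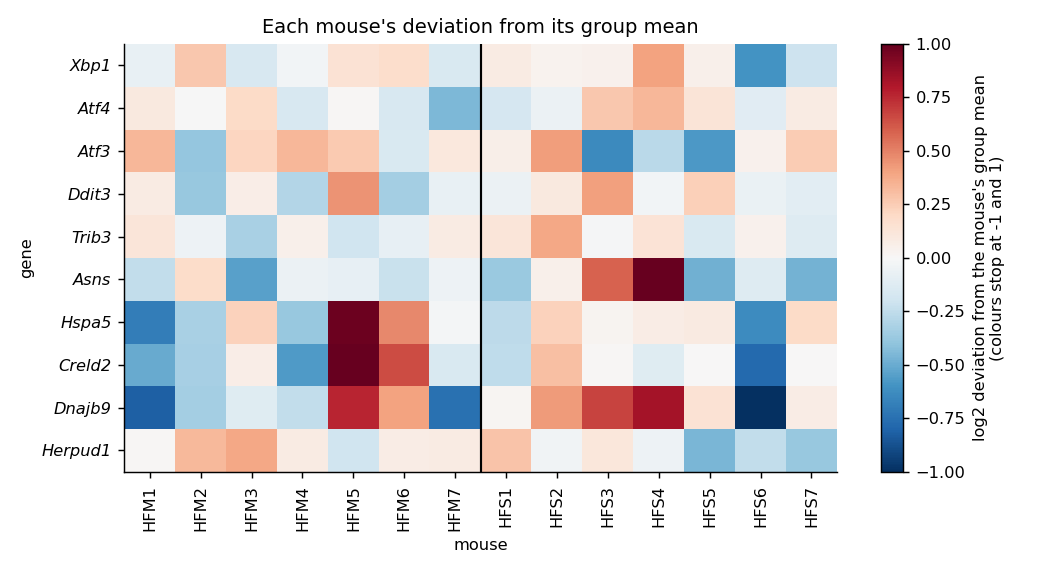
Deviation of each mouse (columns) from the mean over all mice of both groups, on the log2 scale, for the 10 genes (rows). Red is above and blue below that mean, and colours stop at -1 and 1. The vertical line parts HFM from HFS mice. Group means were not taken off here, although the title and the colour bar inside the figure say group mean. Hspa5, Creld2 and Dnajb9 share the colours of HFM5, HFM6, HFM1 and HFS6. Herpud1 has the opposite sign to them in HFM5 and lies near the mean of all mice in HFM1, and Asns stands out in HFS4.

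Over 45 pairs of genes, 3 correlated past an adjusted p of 0.05 by both Pearson's r and Spearman's rho (permutation test of 100000 draws, two-sided, Benjamini-Hochberg over the 45 pairs). Hspa5 and Creld2 were the closest, at r = 0.947 and rho = 0.912 (adjusted permutation p = 0.00045 and 0.00135). Their r was 0.951 within HFM mice and 0.952 within HFS mice (n = 7 each), and 0.941 without HFM5 and HFM1, the 2 mice farthest from the median of Hspa5. Mice high in Hspa5 were high in Creld2 whether they had received cells or saline. Hspa5 and Dnajb9 followed with r = 0.804 and rho = 0.815 (adjusted permutation p = 0.0117 and 0.00945), and 0.715 without HFM5 and HFM1. Dnajb9 and Creld2 had r = 0.778 and rho = 0.837 (adjusted permutation p = 0.0153 and 0.00945), and 0.741 without the 2 farthest mice. The remaining pair, Xbp1 and Dnajb9, had r = 0.763 (adjusted permutation p = 0.0213) but rho = 0.538 (adjusted permutation p = 0.532), and r was 0.501 without HFS6 and HFS4, so that the relation rested on those mice.

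The other pairs did not pass. Over all 45, r was above 0 in 29, with a median of 0.118. Herpud1 was not tied to the other ER genes, with r = -0.242 to Hspa5, -0.286 to Creld2 and 0.045 to Dnajb9. Atf4 and the genes it is known to induce did not move as 1 group either. Its r was 0.386 with Ddit3, 0.362 with Asns, -0.310 with Atf3 and -0.420 with Trib3, and none passed (lowest adjusted permutation p 0.511). Xbp1 total mRNA had r = 0.377 with Hspa5 and 0.385 with Creld2.

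**Figure D4:**
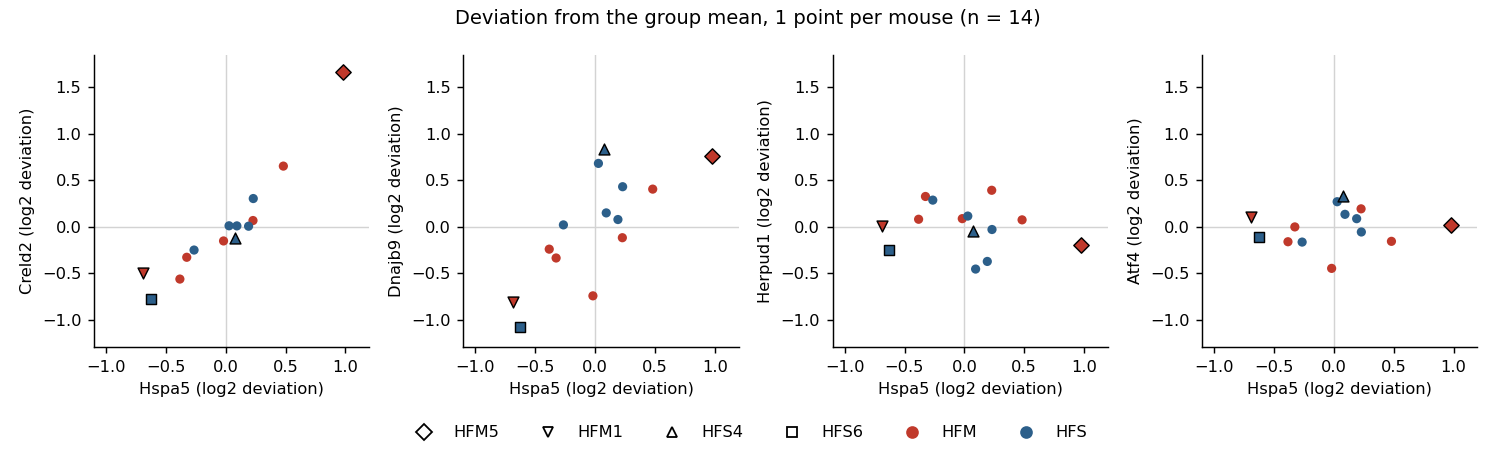
Deviation from the mean of all 14 mice (log2) of Creld2, Dnajb9, Herpud1 and Atf4 (vertical axes) against that of Hspa5 (horizontal axes). Each point is 1 mouse, HFM in red and HFS in blue. Group means were not taken off here, although the title inside the figure says group mean. Creld2 follows Hspa5 along a line through both groups (r = 0.942 as drawn, 0.947 with group means taken off). Dnajb9 follows it more loosely (0.746 and 0.804), and Herpud1 (-0.174 and -0.242) and Atf4 (0.125 and 0.167) do not.

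A search covered 10916 probe sets of exactly 1 symbol in the brighter part of the array. From these the gene most like each of the 10 was taken by r over the 14 mice, as a description with no test. For Hspa5 it was Atp2a2, the calcium pump of the ER membrane (r = 0.970, rho = 0.969). For Creld2 it was Syvn1, the ubiquitin ligase of ER-associated degradation (r = 0.951). Dnajb9 was most like Cyp4a12a, a fatty acid hydroxylase of male liver (r = 0.936), and Xbp1 most like Wdr74 (r = 0.949). Atf4 was nearest to Albfm1 (r = 0.929), Trib3 to Gm10570 (r = 0.902), Herpud1 to Aspscr1 (r = 0.884), Asns to Rpl21 (r = 0.862), Ddit3 to Aak1 (r = 0.858) and Atf3 to Spsb2 (r = 0.796). Each of these is the highest of many values, and all points share the same 14 arrays.

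The genes around the 10 were taken from lists of the pathway, counting the listed genes that had a probe set of their own. Over all 23410 probe sets, 3.57% were higher and 2.90% lower at an unadjusted limma p of 0.05, and 12031 were above 0. Over the 11705 brighter probe sets alone the median log2 difference was 0.02. Of 24 ER chaperones and folding enzymes, none passed an unadjusted limma p of 0.05 in either direction, with a median log2 difference of 0.06, and 18 were above 0. The smallest p were those of Fkbp2, a prolyl isomerase, at 0.18 (limma, adjusted p = 0.786), P4hb, which encodes protein disulfide isomerase, at 0.15, Txndc5 at 0.18 and Dnajb11 at 0.18. Of 18 genes of ER-associated degradation, 1 was higher at that p, Selenos, a selenoprotein of the retrotranslocation complex, by 0.23 (standard error 0.0980; limma, adjusted p = 0.768), and 16 were above 0 with a median of 0.07. Os9 differed by 0.13, Sel1l by 0.19 and Edem2 by 0.10. Of 20 genes of translocation, signal peptidase and COPII export, Sec13 was higher by 0.18 (limma, adjusted p = 0.770) and the median was 0.03, with 13 above 0. Among 13 stress sensors, eIF2 kinases and phosphatases, Wfs1, an ER membrane protein that restrains ATF6, was higher by 0.18 (limma, adjusted p = 0.714), and 9 were above 0. Of 11 other transcription factors of these responses none passed, the smallest p being that of Creb3 at 0.13, and 7 were above 0.

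On the amino acid side, 2 of 16 ATF4 targets of metabolism and transport were lower at an unadjusted p of 0.05, Slc38a2, a carrier of neutral amino acids, by a difference of -0.27, and Pck2, mitochondrial PEP carboxykinase, of -0.18 (limma, adjusted p = 0.770 and 0.772), with a median of -0.03 over the list and 12 genes below 0. Over all 23410 probe sets, 2.90% were lower at that p and 11379 were below 0. None of 11 cytosolic aminoacyl-tRNA synthetases and none of 9 other integrated stress response targets passed. Their medians were -0.01 and -0.06, with 7 and 6 genes below 0. Fgf21, a liver hormone induced by ATF4 and by PPAR-alpha, had a difference of -0.40 with a standard error of 0.330. None of 9 cytosolic heat shock genes (median -0.08, 7 below 0) and none of 9 mitochondrial chaperones and proteases (median -0.05, 5 below 0) passed. No gene of any list passed an adjusted p of 0.05.

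The mice that were high in Hspa5 were also high in many of these genes. Of the 24 ER chaperones, 13 had an r with Hspa5 above 0.5 over the 14 deviations, as did 9 of 18 genes of ER-associated degradation, 8 of 20 of translocation and export and 5 of 9 heat shock genes, against 4.99% of 15604 other genes with a symbol and a promoter. The closest were Sel1l (0.921), the scaffold of the Syvn1 ligase, the ER HSP90 paralog Hsp90b1 (0.918), the secreted ER protein Manf (0.915) and the nucleotide exchange factor Hyou1 (0.911), named after their values were seen. The folding enzymes were split, since P4hb (-0.01), Txndc5 (-0.16), Sil1 (-0.05) and Fkbp2 (-0.32) did not follow Hspa5. Atf4 was followed in part by the same lists and most often by the tRNA synthetases. Its r was above 0.5 with 7 of 24 ER chaperones, 5 of 18 genes of ER-associated degradation and 7 of 20 of translocation and export. The same held for 6 of 9 mitochondrial chaperones and proteases. Of 11 tRNA synthetases, 9 had an r with Atf4 above 0.5 and 1 with Hspa5, led by Yars (0.859) and Nars (0.806), where 11.3% of genes passed that r with Atf4. Of the 16 ATF4 targets 5 had an r with Atf4 above 0.5 and the median was -0.003, from Slc7a11, the cystine carrier, at -0.592 to Slc38a2 at 0.800.

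**Figure D5:**
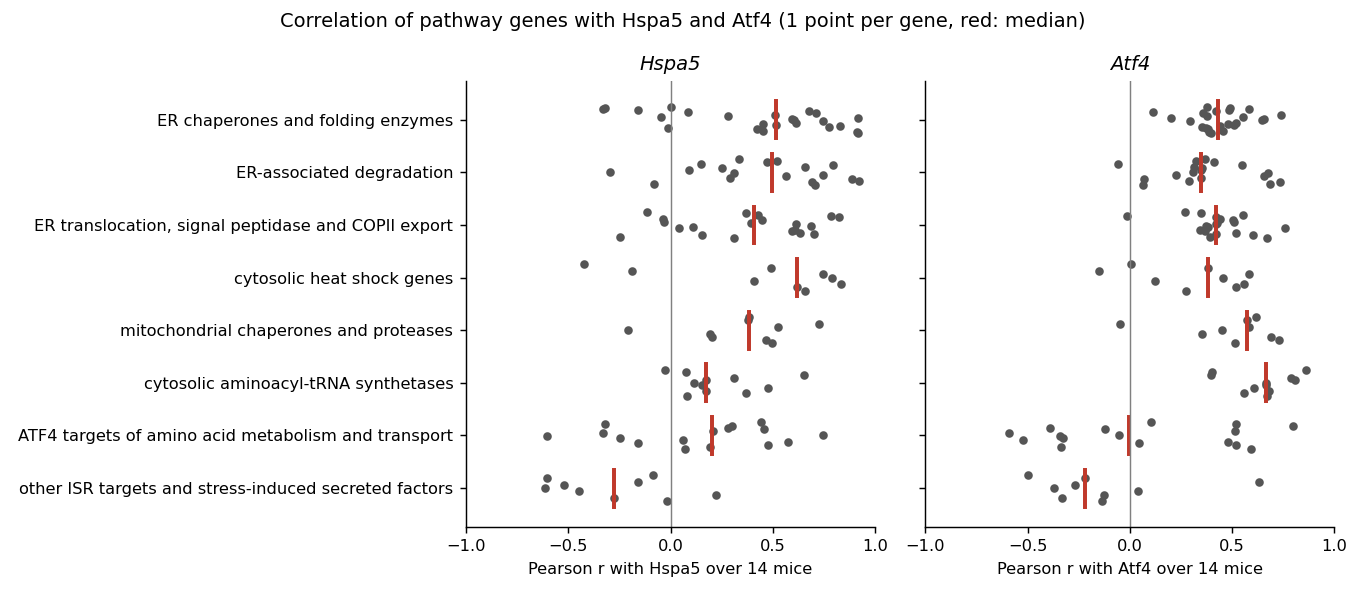
Pearson's r of single genes with Hspa5 (left) and Atf4 (right) over 14 mice after the group means were taken off, by list (rows), with 1 point per gene and the median of the list as a red line. ER chaperones and heat shock genes have medians of 0.515 and 0.619 with Hspa5, and tRNA synthetases have 0.173 with Hspa5 and 0.665 with Atf4.

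The list means per mouse were then tested. Of 200 relations of the 10 genes with 20 list means, 10 passed an adjusted permutation p of 0.05 by Pearson's r. Dnajb9 was closest to ER-associated degradation, at r = 0.909 and rho = 0.943 (adjusted permutation p = 0.0040 and 0.0010), and to the heat shock genes, at r = 0.874 and rho = 0.925 (adjusted permutation p = 0.0060 and 0.0010). Both held without HFS6 and HFM1, at 0.890 and 0.929. Hspa5 had r = 0.835 and rho = 0.815 with ER-associated degradation (adjusted permutation p = 0.0140 and 0.0340), and 0.711 without HFM5 and HFM1. Creld2 with the heat shock genes had r = 0.848 and rho = 0.820 (adjusted permutation p = 0.0215 and 0.0320), and 0.593 without HFM5 and HFS6. Those 4 passed by both measures. Atf4 with the tRNA synthetases had r = 0.765 and rho = 0.793 (adjusted permutation p = 0.0344 and 0.0508), and 0.715 without HFM7 and HFS4. Asns with the ATF4 targets had r = 0.845 and rho = 0.670 (adjusted permutation p = 0.0344 and 0.124), but 0.442 without HFS4 and HFS3, and its r was -0.240 within HFM mice and 0.963 within HFS mice, so that it rested on those HFS mice. Trib3 ran against translocation and export, at r = -0.769 and rho = -0.644 (adjusted permutation p = 0.0344 and 0.141), and -0.632 without HFS2 and HFM3. The 3 others were Creld2 with ER-associated degradation (r = 0.759), Hspa5 with the heat shock genes (r = 0.774) and Dnajb9 with the ER chaperones (r = 0.750).

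Genes with an ERSE in the promoter were set beside these values. Of 19 such genes measured, the 10 genes left out, 7 had an r with Hspa5 above 0.5 and the median was 0.425, against -0.03 over 15604 genes. They were Hsp90b1 (0.918), Syvn1 (0.885), Derl3 (0.744), Ero1b (0.710), Alg12 (0.622), Dnajc3 (0.604) and Acnat2 (0.528), most of them also in the lists above, and Alg12 shares its ERSE with Creld2. With Creld2 and with Dnajb9, whose own window has no ERSE, 6 of the 19 passed 0.5 (medians 0.378 and 0.299), where 4.70% and 6.92% of all genes did. With Herpud1 none of the 19 passed 0.5 and the median was -0.18. Of 406 genes with a UPR element, 7.14% had an r above 0.5 with Hspa5, and of 561 with a C/EBP-ATF element 11.4% had one with Atf4, where 11.3% of all genes did. These shares were found after the data were seen and no test was made of them.

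Markers of other cells and states were also compared between the groups and read beside the 10 genes. None of them passed an adjusted p of 0.05. Over all probe sets, 3.57% were higher and 2.90% lower at an unadjusted limma p of 0.05. Of 12 macrophage markers, 5 were higher in HFM livers at an unadjusted limma p of 0.05 (Mpeg1, Cd5l, C1qb, Cd68 and Marco), with list means per mouse from -0.25 to 0.76 in HFM and -0.53 to 0.51 in HFS mice around the mean of each gene. Of 10 acute phase genes, 8 were higher and none lower, with a median of 0.63. HFM5, highest in Hspa5 and Creld2, had the lowest acute phase mean of the HFM mice, at -0.01, and the lowest macrophage mean. None of 9 hepatocyte markers passed (median 0.03), and their means per mouse ran from -0.10 to 0.12, with levels of 9.49 to 13.47. Of 7 B and plasma cell markers, 2 were lower (Blk and Cd79a), while 3 of the 7 were above 0. Their mean levels were low, at 2.69 to 4.56 against array medians of 4.24 to 4.35. None of 8 neutrophil, 6 endothelial and 6 stellate markers passed. Of 14 immediate early genes Klf6 was higher, of 7 fasting genes G6pc was lower, and of 7 feeding genes none passed. None of these list means correlated with any of the 10 genes past an adjusted permutation p of 0.05 (lowest 0.131). Their part in the differences of the 10 genes was not tested.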

How the data were processed

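The authors hybridised liver RNA of 14 mice to Affymetrix arrays and summarised each probe set with Expression Console. What they deposited are log2 values, normalised across the arrays by RMA per the labels but by PLIER per the study's methods, so the algorithm is not settled. Every value column was used (0 left out). The 23410 probe sets with a gene symbol were fitted with limma 3.58.1 (R 4.3.3; lmFit, eBayes) as HFM minus HFS with no covariate, with Benjamini-Hochberg adjustment over all of them. Array medians were 4.24 to 4.35 and pairs of arrays correlated at 0.970 to 0.991. Exact permutation tests were two-sided over 3432 assignments, with a smallest p of 0.000583. Correlations used deviations from group means, with 100000 permutations. Precision is limited by the number of arrays, and replicates were separate mice. The 10 genes and the 20 lists were chosen with earlier results of these data known. The text names the 10 genes, up to 4 genes of each list with the smallest p and the gene most like each. Other named genes, such as Yars, Sil1 and Slc7a11, were chosen after their values were seen. Alternatives were another normalisation, centring, filter, weights, prior, test, probe set rule and each mouse left out. Relations with lists and promoter motifs, and the spread within groups, were added after the data were seen. Promoters came from RefSeq (GRCm38.p6), where all 10 genes matched. The steps were tested on simulated data.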

Additional observations from a re-analysis of the deposited data

Results flagged for a closer look

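Within a group of 7 mice, a mouse was marked when the gap to its nearest neighbour was large for the range of the group, which chance gives in about 1 of 20 groups, and 4 of 60 groups were marked. In HFS mice, Dnajb9 was 6.12 in HFS6, where the next lowest mouse was at 7.22. HFS6 also had the lowest Xbp1 and Creld2 of all mice. The mean of the other integrated stress response targets was 0.24 in HFS4, against 0.05 in the next mouse, and HFS4 was the mouse with the highest Atf4, Asns and Xbp1. The mean of the neutrophil markers was 1.41 in HFM2, against -0.01 in the next HFM mouse, and 0.46 in HFS5, against -0.11 in the next HFS mouse. Neither mouse was the highest or the lowest in Hspa5, Creld2 or Dnajb9, while HFM2 had the lowest Atf3 and Ddit3 of the HFM mice and HFS5 the lowest Herpud1.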

How the results depend on the processing

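Under every alternative run, 0 of the 10 genes passed an adjusted p of 0.05 or the filter of the methods, and the median difference of the 10 genes ran from -0.08 to 0.05. The count at an unadjusted limma p of 0.05 went from 0 to 1 higher gene, Herpud1, with the median of each array taken off (difference 0.25) and with the replicate block (0.22), and centring moved the share of higher probe sets past the filter from 65.0% to 81.4%. Leaving out 1 mouse gave 0 to 1 higher and 0 to 1 lower genes. Leaving out 1 mouse moved the difference of Hspa5 between -0.078 (without HFM5) and 0.20 (without HFM1), that of Creld2 between -0.021 (without HFM5) and 0.35 (without HFM4) and that of Xbp1 between -0.044 (without HFS6) and 0.12 (without HFS4), so that these 3 genes have no settled direction. Without HFS6, Hspa5 was at -0.020. The cause was not tested. Deviations of same-numbered mice correlated at -0.203 to 0.139, and 1 of 7 pairs was over 0.1. Mice of different numbers were not compared in this way, so a pairing by mouse number was not excluded. The paired fit with the replicate block changed no call at an adjusted p. The pair of Xbp1 and Dnajb9 was lost by Spearman's rho (0.538). No intensity over background is given, so how far signal limits the low values of Asns was not tested.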
